A study of Mus with 6 samples.

Results

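The miR-29 family was followed through 6 small RNA libraries of mouse adipocytes, 3 from a control group and 3 from a group under chronic intermittent hypoxia (CIH), in which oxygen drops again and again, as in sleep apnoea. Its members were taken by name: every listed mature miRNA whose name begins with miR-29a-, miR-29b- or miR-29c-. This gave 7 of the 1306 names listed in any library (mmu-miR-29a-3p, mmu-miR-29a-5p, mmu-miR-29b-3p, mmu-miR-29b-1-5p, mmu-miR-29b-2-5p, mmu-miR-29c-3p and mmu-miR-29c-5p, written below without the species prefix), and all 7 were listed in all 6 libraries. Both groups are wild type on the C57BL/6 strain and differ, per the labels, in the exposure alone. Age, the fat depot, the oxygen cycle and its length, and whether animals or cultured cells were exposed are details that the sources used here do not give.

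miRNAs are short RNAs cut as a pair of arms, 5p and 3p, from a hairpin precursor. One arm usually enters Argonaute as the guide and pairs through its seed with target mRNAs, which are then repressed. In the miR-29 family the 3p arms are the usual guides and share one seed. Their best known targets are mRNAs of the extracellular matrix, collagens and elastin among them, and those of DNA methyltransferases. In fat cells, raised miR-29a has been linked to weaker insulin-stimulated glucose uptake.

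The 7 names come from 4 precursor genes at 2 places in the mouse genome (GRCm38). Mir29a (chromosome 6, 31062660 to 31062747) and Mir29b-1 (31063023 to 31063093) lie 275 bp apart, and no other annotated gene overlaps them. The nearest protein-coding gene there is Klf14, 103670 bp from Mir29a. Mir29b-2 (chromosome 1, 195037040 to 195037120) and Mir29c (195037547 to 195037634) lie 426 bp apart, within the span of the long non-coding RNA gene A330023F24Rik and close to Cd46. Both Mir29b genes give the same mature miR-29b-3p, so its reads cannot be assigned to a chromosome, whereas miR-29b-1-5p and miR-29b-2-5p carry separate names. The mature 3p arms are nearly identical, and the sources used here do not say how reads that fit several names were assigned, so the split between miR-29a-3p and miR-29c-3p is uncertain.

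Total counts ran from 6291101 to 11264151 per library. A count of 3, taken as the floor, corresponded to 0.266 to 0.477 CPM (counts scaled to the same library total). Libraries numbered 3 stood apart in both groups: their files list other names, and log CPM correlated at 0.909 to 0.926 with the libraries numbered 1 and 2 (456 miRNAs, which are not independent), against 0.974 to 0.990 among the latter and 0.914 between the 2 libraries numbered 3, which were thus no closer to each other. miR-148a-3p took 49.4% of control library 3 and 24.9% of CIH library 3, but 2.81% to 5.53% of the other 4. Differences of members and lists are therefore given for all 6 libraries, for the libraries numbered 1 and 2, and for the pair numbered 3. No miRNA defines adipocytes, so the label can be checked only loosely: miR-143-3p, abundant in fat cells and in stroma, ranged from 55147 to 133754 CPM, and markers of other cells were detected as well. Summed per library, 4 leukocyte miRNAs reached 0.266 to 4.29 CPM, 4 erythroid ones 21.0 to 153.9, 7 epithelial ones 18.6 to 408.5 and 4 neuronal ones 210.8 to 521.5 CPM.

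miR-29a-3p carried nearly the whole family. In the order of library numbers 1, 2 and 3, used for all values below, control held 2167, 1859 and 466 CPM of it and CIH held 1488, 1736 and 2651 CPM. Control library 3 was by far the lowest and CIH library 3 the highest, and the ranges of the groups overlapped. It ranked between 30th and 57th among the known miRNAs of a library and made up 90.6% to 95.3% of all family reads.

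miR-29b-3p, the guide made from both loci, came next, with 101, 95.2 and 34.5 CPM in control and 70.7, 82.4 and 86.4 CPM in CIH. Again control library 3 was lowest, while the other 5 libraries lay within a narrower range and the groups overlapped. miR-29c-3p was scarce, at 7.79, 10.2 and 2.06 CPM in control and 6.41, 8.36 and 6.48 CPM in CIH, from 17 to 99 reads a library. It too was lowest in control library 3, and all CIH values lay between control values.

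The 5p arms are usually discarded after the hairpin is opened. miR-29c-5p stood at 13.0, 12.2 and 7.39 CPM in control and at 17.3, 14.0 and 22.5 CPM in CIH. Every CIH library lay above every control library. miR-29a-5p stood at 4.93, 5.66 and 2.42 CPM in control and at 6.00, 5.78 and 11.3 CPM in CIH, also with no overlap, although CIH library 2 exceeded control library 2 by little. These values rest on 61 to 254 reads for miR-29c-5p and 20 to 127 reads for miR-29a-5p.

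The 5p arms of the Mir29b genes lay close to the floor. miR-29b-1-5p, from chromosome 6, stood at 2.07, 0.309 and 2.06 CPM in control and 2.18, 1.39 and 3.73 CPM in CIH, the low value in control library 2 being 3 reads. miR-29b-2-5p, from chromosome 1, stood at 0.954, 2.37 and 0.121 CPM in control and 2.18, 2.39 and 1.15 CPM in CIH, with 1 read in control library 3. Both overlapped between the groups.

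**Figure D1:**
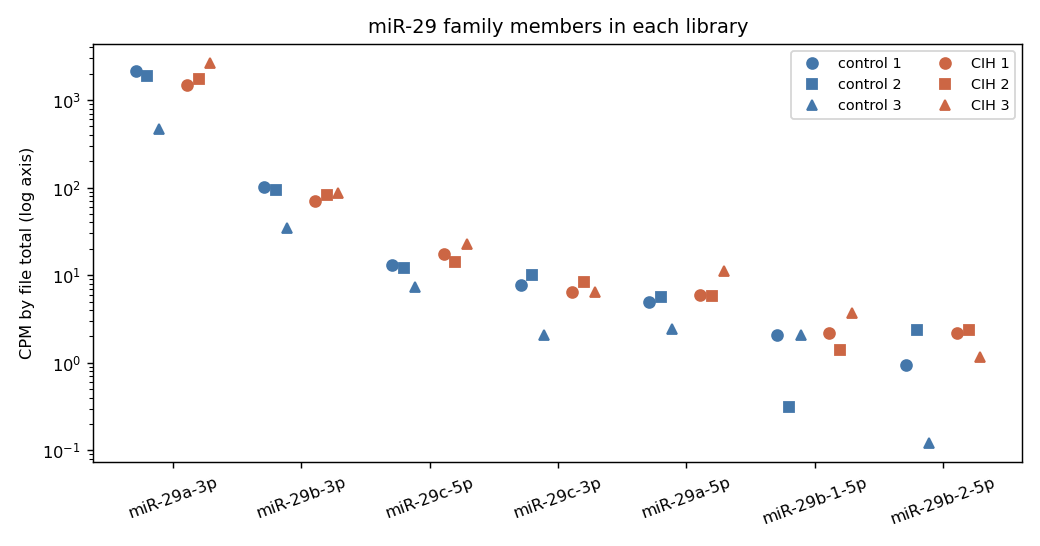
CPM by library total (log axis) of the 7 miR-29 members, with 1 point per library, control in blue, CIH in orange and the library number as the marker shape. miR-29a-3p lies between 466 and 2651 CPM and all 5p arms lie below 23 CPM, and the control library numbered 3 is the lowest point for 6 of the 7 members.

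Mature miRNAs are of nearly equal length, so CPM was ranked between members without a correction for length. The ranking is one of reads, since how evenly each sequence entered the libraries was not measured. The order by mean CPM was miR-29a-3p, miR-29b-3p, miR-29c-5p, miR-29c-3p, miR-29a-5p, miR-29b-1-5p and miR-29b-2-5p. miR-29a-3p exceeded miR-29b-3p in all 6 libraries by 13.5 to 30.7 times. miR-29c was the one member gene with more reads from the 5p than from the 3p arm, in all 6 libraries and by 1.20 to 3.59 times. Neighbours that did not keep their order were miR-29c-3p and miR-29a-5p, the former higher in 4 of 6 libraries, and the pair of miR-29b 5p arms, with miR-29b-1-5p higher in 3, lower in 2 and equal in 1.

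In the comparison of all 6 libraries no member was called between CIH and control. All 7 passed the filter on low counts. Of 456 miRNAs, edgeR's quasi-likelihood test called 0% (Benjamini-Hochberg adjusted p under 0.05; 23 at an unadjusted p under 0.05; the count was also 0 by DESeq2, with 37 such unadjusted p-values, and by limma-voom, with 21). The log2 difference of miR-29a-3p was 0.39 (SE 0.50, adjusted p = 0.970), that of miR-29b-3p 0.02 (SE 0.43) and that of miR-29c-3p 0.09 (SE 0.56). The 5p arms had larger estimates, 0.72 (SE 0.51, adjusted p = 0.899) for miR-29a-5p and 0.58 (SE 0.42, adjusted p = 0.899) for miR-29c-5p. The median over the 7 members was 0.41, against 0.04 over all tested. Without control library 3 the value of miR-29a-3p was 0.10. Whether fewer cells of a type or less RNA per cell lies behind a level cannot be told apart in these bulk libraries.

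The 2 members without overlap, miR-29a-5p and miR-29c-5p, were both higher in CIH, as were 7.46% of all tested miRNAs. They did not overlap after TMM scaling either, which corrects for the composition of a library and gave 8.11% of such miRNAs. On that scale miR-29c-5p stood at 10.9, 11.1 and 11.6 CPM in control and at 15.1, 15.0 and 20.3 CPM in CIH. The control libraries were thus close to each other, library 3 included. miR-29a-5p stood at 4.11, 5.14 and 3.81 scaled CPM in control and 5.23, 6.17 and 10.2 scaled CPM in CIH, where the lowest CIH and the highest control value nearly touched.

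Within the libraries numbered 1 and 2, the guides and the 5p arms pointed in opposite directions, and none of the 7 members was called. The same test called 9.37% of 459 miRNAs there. miR-29a-3p had a log2 difference of -0.15 (SE 0.22, adjusted p = 0.740), miR-29b-3p of -0.19 (SE 0.27, adjusted p = 0.740) and miR-29c-3p of -0.12 (SE 0.38, adjusted p = 0.887). The 4 5p arms had positive values: 0.29 (SE 0.39) for miR-29a-5p, 0.45 (SE 0.35, adjusted p = 0.493) for miR-29c-5p, 0.85 (SE 0.78) for miR-29b-1-5p and 0.54 (SE 0.60) for miR-29b-2-5p. The smallest adjusted p among the 7 was 0.493.

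By library total, miR-29a-3p and miR-29b-3p were lower in both CIH libraries than in both controls of that set, as were 32.0% of the tested miRNAs. After TMM scaling both overlapped, for miR-29a-3p with control holding 1975 and 1845 scaled CPM and CIH holding 1410 and 2024. The lower level thus rested on CIH library 1 on that scale. Without that library the log2 difference of miR-29a-3p was 0.07 and that of miR-29b-3p 0.04. Counting by total moved the median of all tested miRNAs from -0.03 to -0.17 in this set, from 0.04 to 0.15 over all 6 libraries and from 0.05 to 0.74 in the pair numbered 3.

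**Figure D2:**
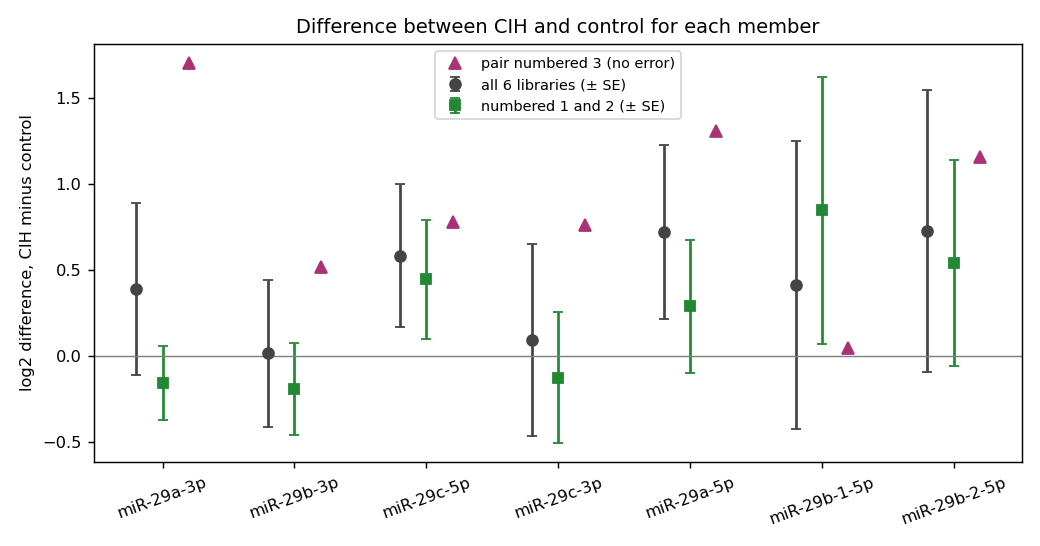
Log2 difference, CIH minus control, of each member in all 6 libraries (circles, ± SE), in the libraries numbered 1 and 2 (squares, ± SE) and in the pair numbered 3 (triangles, 1 library per group, so no error). The 3p arms lie just below 0 in the libraries numbered 1 and 2 and above 0 in the pair numbered 3, at 1.70 for miR-29a-3p.

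In the pair numbered 3 all 7 members, which come from 4 precursor genes, were higher in the CIH library after TMM scaling. So were 52.4% of all tested miRNAs. Among the members, miR-29a-3p had the largest log2 difference on that scale, with 0.5 CPM added. Its count was 3846 in control and 29859 in CIH. The ratio of CPM was 5.69 (exact 95% interval 5.50 to 5.89, counting error only), and 3.26 after TMM scaling. The log2 difference of 1.70 placed it 49th of 456. More than 2-fold higher in that library on this scale were 23.7% of miRNAs, and 3 members: miR-29a-3p, miR-29a-5p (1.31) and miR-29b-2-5p (1.16), the last resting on 1 and 13 reads with a CPM ratio of 9.53 (exact 95% interval 1.43 to 405).

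The other members of that pair had smaller differences. miR-29c-5p stood at 0.78, miR-29c-3p at 0.76, miR-29b-3p at 0.52 and miR-29b-1-5p at 0.05 on the log2 scale. For miR-29b-3p the ratio of CPM was 2.50 (exact 95% interval 2.19 to 2.87), but 1.43 after TMM scaling. With 1 library per group this pair has no spread of its own, and the labels do not say what sets the libraries numbered 3 apart.

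An interaction term tested whether the difference between CIH and control was the same in both sets. It was called for 1 of the 7 members, miR-29a-3p, at 1.86 on the log2 scale (SE 0.38, edgeR adjusted p = 0.000326), and for 30.3% of the 456 miRNAs. By library total it was called for 3 of the 7 members and for 34.6% of all miRNAs. The term for miR-29b-3p was 0.71 (SE 0.48, adjusted p = 0.286) and that for miR-29c-5p 0.35 (SE 0.58, adjusted p = 0.688). The fit takes its spread from the libraries numbered 1 and 2 alone, which differed within a group by chi-square values of 135 and 404 per degree of freedom, against 7381 to 13387 between either of them and library 3 of its group. A single library stands for each group in the pair numbered 3, so the adjusted p does not cover the spread among such libraries, and the term cannot be told apart from a difference between those 2 libraries for any other reason.

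**Figure D3:**
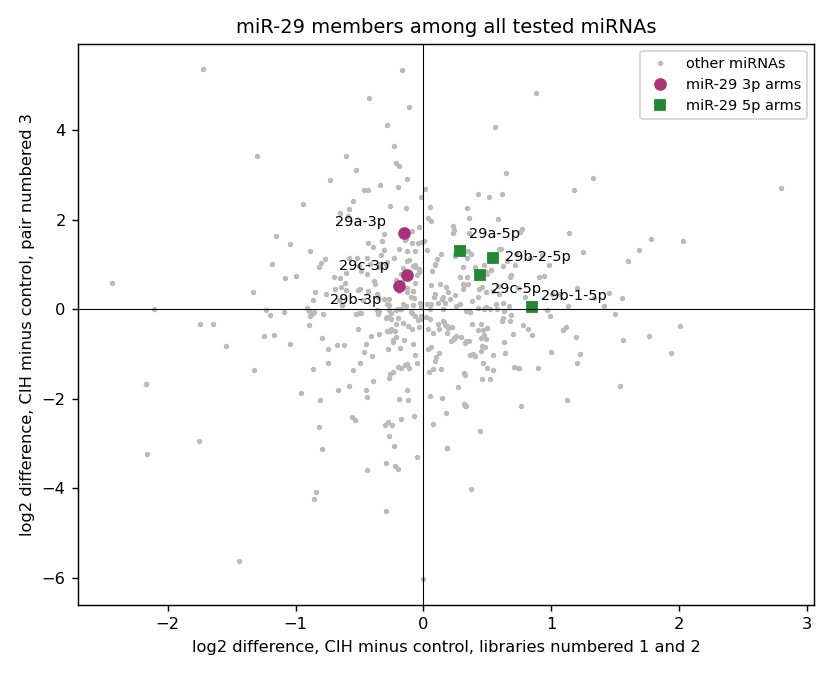
Log2 difference, CIH minus control, in the libraries numbered 1 and 2 (x axis) against that in the pair numbered 3 (y axis), with 1 point per miRNA and the miR-29 members named. The 3 guides lie left of 0 on the x axis and above 0 on the y axis, the 4 5p arms lie right of 0, and all 7 sit inside the cloud of the other miRNAs.

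Ratios between members of one library do not depend on scaling between libraries. For every 100 reads of miR-29a-3p there were 4.66, 5.12 and 7.41 reads of miR-29b-3p in control and 4.75, 4.75 and 3.26 in CIH. The 4 libraries numbered 1 and 2 were thus alike, and the libraries numbered 3 lay on either side of them. Per 100 reads of miR-29a-3p there were 0.360, 0.548 and 0.442 reads of miR-29c-3p in control and 0.430, 0.482 and 0.244 in CIH. Per 100 reads of miR-29b-3p, those of miR-29c-3p were 7.72, 10.7 and 5.96 in control and 9.06, 10.1 and 7.50 in CIH. For the 3 ratios between guides the two-sided exact permutation p was 0.3, 0.6 and 0.7, each 0.7 after adjustment over 6 ratios. The smallest p this design allows is 0.1, so the test could not have called a difference at 0.05.

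The ratio of 5p to 3p reads was higher in the CIH libraries numbered 1 and 2 than in their controls for miR-29a, miR-29b and miR-29c, and lower in CIH in the pair numbered 3. For miR-29a there were 0.227, 0.304 and 0.520 reads of 5p per 100 of 3p in control and 0.403, 0.333 and 0.425 in CIH. For miR-29b, with both 5p names summed, there were 2.99, 2.81 and 6.32 reads per 100 in control and 6.17, 4.59 and 5.65 in CIH. For miR-29c the ratio of 5p to 3p was 1.67, 1.20 and 3.59 in control and 2.70, 1.68 and 3.48 in CIH. In all 3 the CIH libraries numbered 1 and 2 lay above both controls of that set, by the smallest margin in miR-29c, and control library 3 had the highest ratio of all 6. Over all 6 libraries the two-sided exact permutation p was 0.6, 0.4 and 0.6 for miR-29a, miR-29b and miR-29c, each 0.7 after adjustment over the 6 ratios. The smallest p that 3 libraries against 3 allow is 0.1, so none of the ratios could have passed 0.05. An exact test of 2 libraries against 2 could not pass either. The pattern was picked out after its values were seen. Outside the family 113 miRNAs had both arms counted in every library, and in 14.2% of them the 5p to 3p ratio was likewise above both controls in both CIH libraries of that set, with a median log2 difference of -0.13 over the 113.

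**Figure D4:**
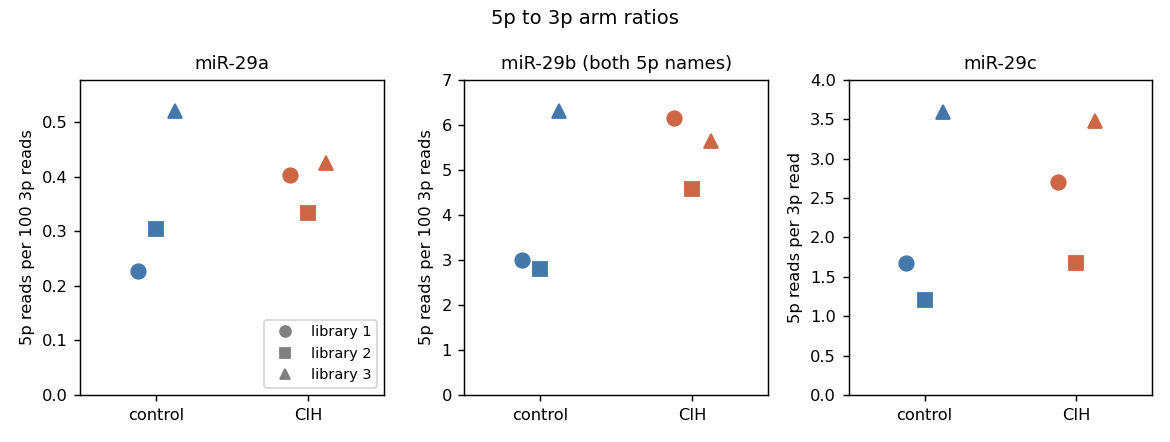
Reads of the 5p arm relative to the 3p arm of miR-29a, miR-29b (both 5p names summed) and miR-29c, with 1 point per library, control in blue, CIH in orange and the library number as the marker shape. The miR-29a and miR-29b panels count per 100 reads of 3p and the miR-29c panel per read of 3p, and in each panel the control library numbered 3 is the highest point.

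Summed over all members, the family share was 0.230%, 0.199% and 0.0514% in control and 0.159%, 0.185% and 0.278% in CIH. The means were 0.160% ± 0.0952 and 0.208% ± 0.0626 (SD, 3 libraries each), and an exact two-sided permutation test gave p = 0.6. The higher mean of CIH rested on control library 3: without it the difference, CIH minus control, was -0.00657 percentage points. With miR-148a-3p and miR-21a-5p left out of the total, the family share was 0.115% in that library and 0.296% to 0.488% in the other 5.

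Other miRNAs shared the profile over the 6 libraries with a low control library 3. Likeness was measured as the root mean square difference of log2(CPM + 1) after centring each miRNA, among 254 with a mean of at least 10 CPM, so a smaller value means a closer profile. Closest to miR-29a-3p were miR-344-3p (0.0973), miR-16-5p (0.191) and miR-145a-3p (0.219), where the median miRNA lay at 0.783. Closest to miR-29b-3p were miR-106b-5p (0.147), miR-7a-5p (0.173) and miR-125b-2-3p (0.196), with miR-29c-3p at 0.188. Closest to miR-29c-3p outside the family were miR-7a-5p (0.227), miR-106b-5p (0.228) and miR-194-5p (0.246). miR-29a-3p, the neighbour of miR-29b-1 on chromosome 6, lay at 0.352 from miR-29b-3p and 0.405 from miR-29c-3p. All these values rest on the same 6 libraries and on CPM by library total. A miRNA that fills much of a library lowers the CPM of all others in it, and miR-148a-3p took 49.4% of control library 3. Its part in the likeness was not tested.

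miRNAs tied to the processes that miR-29 acts on were listed as well. Of 14 reported to restrain matrix or fibrosis, 12 were tested, and none was called in all 6 libraries or in the libraries numbered 1 and 2, with medians of -0.06 and -0.20 on the log2 scale. In the pair numbered 3, 9 of the 12 had higher values in CIH, with a median of 0.73 against 0.05 over all tested. In the libraries numbered 1 and 2 the smallest edgeR p-values belonged to miR-146a-5p (0.88, adjusted p = 0.0705), a brake on NF-kB signalling, miR-30a-5p (-0.79, adjusted p = 0.0939) and miR-24-3p (0.53, adjusted p = 0.132). Of 10 reported to favour fibrosis, 9 were tested, with a median of 1.16 over all 6 libraries, where 0 were called, and of 0.23 in the libraries numbered 1 and 2. In that set 3 rose and 0 fell (edgeR adjusted p under 0.05), where 4.14% of all miRNAs rose. They were miR-221-3p (1.18), miR-222-3p (1.14) and miR-155-5p (0.76). miR-221-3p and miR-222-3p share a cluster, so they are not independent. The lists were chosen with earlier results of these data known, so these counts are no test of a list. In the pair numbered 3 the median of the 9 was 1.72, and 8 of 9 had higher values in CIH.

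Of 13 miRNAs reported in insulin signalling of fat cells, 12 were tested. Over all 6 libraries their median was -0.10, with 5 higher and 7 lower in CIH, and 0 were called. In the libraries numbered 1 and 2 their median was -0.18, and 11 of 12 had lower values in CIH, as had 52.3% of all tested miRNAs; miR-222-3p, the one higher in CIH, was the only one called. In the pair numbered 3 the median was 0.04, with 6 higher and 6 lower. miR-378a-3p, encoded in the gene of the mitochondrial coactivator PGC-1beta, stood at -0.44 (adjusted p = 0.196) and miR-320-3p at -0.44 (adjusted p = 0.243) in the libraries numbered 1 and 2, against -3.59 and 1.15 in the pair numbered 3. The medians of all tested miRNAs were 0.04 over all 6 libraries and -0.03 in the libraries numbered 1 and 2.

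Markers of other cell types differed between libraries too. The 6 fibroblast and stromal miRNAs, all detected, summed to 130465, 147565 and 63987 CPM in control and to 119590, 102098 and 123504 CPM in CIH. In the libraries numbered 1 and 2, 0 of 6 had a positive log2 difference, against 47.7% of all tested miRNAs, and 0 of 6 were called. Some of the 6 share a hairpin (miR-199a-3p and miR-199a-5p) or a cluster (miR-199a with miR-214, miR-143 with miR-145a), so they are not independent. In the pair numbered 3, 5 of 6 had higher CPM in CIH. The same 5 were higher after TMM scaling, where 52.4% of all tested miRNAs were higher in that pair. There miR-199a-3p had 3220 CPM in the control and 42469 in the CIH library, whereas miR-143-3p, the most abundant of the 6 in every library, had 57127 and 55147 CPM. The 7 epithelial miRNAs summed to 408.5, 334.0 and 76.3 CPM in control and to 169.6, 125.7 and 18.6 CPM in CIH, lower in CIH at every library number. Of these sums, miR-205-5p alone held 269.6, 253.4 and 67.8 CPM in control and 100.7, 75.2 and 1.86 CPM in CIH. Of the 5 tested in the libraries numbered 1 and 2 all were lower, as were 52.3% of all tested miRNAs. The 2 called were miR-205-5p (-1.44, edgeR adjusted p = 0.000153) and miR-203-3p (-1.24, adjusted p = 0.00751), where 5.23% of all tested miRNAs were called lower. In the pair numbered 3, 4 of the 7 had higher CPM in CIH. After TMM scaling the 3 tested ones from the miR-200 family were higher in that pair. These epithelial miRNAs were picked out after their values were seen. Endothelial miRNAs summed to 33.8 to 136.9 CPM in control and 73.1 to 103.9 CPM in CIH. The 2 endothelial miRNAs, miR-126a-3p and miR-126a-5p, are arms of 1 hairpin. Both were lower in CIH in the libraries numbered 1 and 2 (-0.18 and -0.64 on the log2 scale, 0 called). In the pair numbered 3 both were higher in CIH (0.79 and 0.09 after TMM scaling). The miRNAs listed as abundant in fat cells were all lower in CIH in both sets after TMM scaling. In the pair numbered 3, where 47.1% of tested miRNAs were lower, miR-378a-3p stood at -3.59, miR-30a-5p at -3.12 and miR-148a-3p at -1.79. There miR-193b-3p stood at -1.35, miR-103-3p at -1.03 and miR-143-3p at -0.85. In the libraries numbered 1 and 2 their values ran from -1.32 to -0.18, and 52.3% of tested miRNAs were lower. The part of any of these cells in the levels of miR-29 was not tested.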

How the data were processed

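Small RNA of 3 control and 3 CIH libraries was sequenced, and the authors deposited whole-number read counts per mature miRNA, 1 table per library, without normalization. In 3 tables the header says FPKM, but those values are whole numbers with a different total in each library and were taken as counts. featureCounts 1.5.0-p3, DESeq 1.8.3 and GRCm38 are named, per the submitters' processing notes, with no role; for adapter trimming, aligner and miRBase release nothing is given in the sources used here. Libraries numbered 1 and 2 list 1053 names and those numbered 3 list 1186; the 929 known names in every table entered the fits. Columns of other samples numbered 0.

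CPM is the count over the library total. The main test was edgeR 4.0.16 (quasi-likelihood, robust, TMM, filterByExpr; R 4.3.3). Its single term was group, with p-values adjusted over all tested miRNAs at 0.05. DESeq2 1.42.0 and limma 3.58.1 (voom) were alternatives. Shares and ratios used exact permutation tests in scipy 1.17.1. Python 3.11.15, pandas 2.3.3, numpy 2.4.6 and matplotlib 3.10.9 were used. All 4 precursor genes were found in RefSeq's gene table for GRCm38.p6, the source of the positions.

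The miR-29 members, the lists and the tests were chosen with earlier results of these data known. The text names every member, the 3 miRNAs closest in profile to each guide, and from each list the members called in the libraries numbered 1 and 2, or the 3 of smallest p there. The alternatives were other scalings, tests and filters, a threshold of 0.1, a total without miR-21a-5p and miR-148a-3p, the set as a term, the replicate block and leaving out each library. Alternatives of the interaction and of the overlap were added after the data were seen.

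Libraries of equal number deviated together from their group means (r = 0.31, 0.34 and 0.41 across miRNAs), each above 0.1, the bound set for calling them pairs. Unequal numbers among 1 and 2 did so as well (r = 0.21 and 0.40), so this check does not tell number 1 from number 2. The main tests stayed unpaired, with the block as an alternative. Any 2 libraries of a group differed beyond counting noise (smallest chi-square 135 per degree of freedom). The labels do not say whether they are separate animals or cultures, so the p-values reflect only how far these libraries scatter, which may be technical scatter. No molecular identifiers are mentioned, so intervals and floors cover counting error only.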

Additional observations from a re-analysis of the deposited data

Results flagged for a closer look

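For miR-29a-3p the difference between CIH and control was larger in the pair numbered 3 than in the libraries numbered 1 and 2, by the interaction of group and set (1.86 on the log2 scale, edgeR adjusted p = 0.000326). The same term was called for 30.3% of the 456 tested miRNAs, so such a call is not particular to this member. The log2 difference of miR-29a-3p was -0.15 in the libraries numbered 1 and 2, with values on both sides of 0 when single libraries were left out, and 1.70 in the pair numbered 3. The 7 alternatives gave 1.75 to 2.83 with adjusted p from 0.000202 to 0.00677, but all share the same 2 libraries numbered 3. With 1 library per group there, the spread comes from the libraries numbered 1 and 2, and neither the adjusted p nor the alternatives show that the difference would recur in other libraries. In that pair, miR-199a-3p and other stromal miRNAs were higher in the CIH library too. miR-143-3p, the most abundant stromal miRNA listed, was lower there (-0.85 on the log2 scale after TMM scaling). The part of these miRNAs in the result was not tested.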

How the results depend on the processing

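Over members and alternatives, none of 101 values from all 6 libraries (smallest adjusted p 0.528) and none of 80 within the libraries numbered 1 and 2 (0.174) was called; DESeq2 gave miR-29b-1-5p no adjusted p in the latter. The 43 calls in that set became 16 with a mean of at least 10 CPM, 65 at a threshold of 0.1, 48 with the replicate block and 9 to 97 with single libraries left out (control library 2 out: 9; control library 1 out: 14; CIH library 1 out: 23; CIH library 2 out: 97); by library total 7 rose and 27 fell, against 19 and 24. The block changed no call of a member; the family share then had an exact paired permutation p = 1. Values of members changed sign in some alternatives. Over all 6 libraries these were miR-29b-3p with RLE factors (-0.065), DESeq2 (-0.065) and the 10 CPM filter (-0.046), and, with single libraries left out, miR-29b-3p (-0.15 to 0.21), miR-29b-1-5p (-0.10 to 1.25) and miR-29c-3p (-0.20 to 0.51). In the libraries numbered 1 and 2, leaving out single libraries gave -0.40 to 0.075 for miR-29a-3p, -0.44 to 0.036 for miR-29b-3p and -0.48 to 0.23 for miR-29c-3p. The family share difference ran from -0.00657 to 0.0825 percentage points, and the log2 ratio differences from -0.45 to 0.040 (29c-3p to 29a-3p), -0.041 to 0.38 (29c-3p to 29b-3p) and -0.047 to 0.55 (29a-5p to 29a-3p). The interaction was called for 3 members by library total, adding miR-29a-5p (2.06) and miR-29b-3p (1.68), where 34.6% of all miRNAs were called, and for 2 without CIH library 2, adding miR-29b-3p (1.01), where 34.9% were; its value for miR-29b-1-5p (-0.80) turned to 0.17 by library total and ran from -2.33 to 0.073 with libraries left out. In the pair numbered 3, values by library total were 2.51 for miR-29a-3p, 1.31 for miR-29b-3p and 1.55 for miR-29c-5p. The cause was not tested. Depth limits the 5p arms of miR-29b most, with 1 to 42 reads.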
